A study of Drosophila melanogaster with 18 samples.

Results

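The transcripts described here are those of 10 tubulin genes of *Drosophila*: 4 beta-tubulin genes (*betaTub97EF*, *betaTub56D*, *betaTub60D* and *betaTub85D*), 4 alpha-tubulin genes (*alphaTub84B*, *alphaTub84D*, *alphaTub85E* and *alphaTub67C*) and 2 gamma-tubulin genes (*gammaTub23C* and *gammaTub37C*). They were chosen by name, and all probes that the array design assigns to them were taken, which gave 16 of the 32162 probes and 10 of the 13059 gene symbols on the array. The RNA came from S2R+ cells, which grow attached, stem from *Drosophila* embryos and have features of blood cells. Cells were treated with double-stranded RNA of *lacZ*, a bacterial gene without a fly counterpart (lacZ RNAi, the control), or of *His2Av*, the gene of the fly H2A.Z histone variant (H2Av RNAi), and were then kept for 24 h at 14, 25 or 30 °C. Each of the 6 combinations was measured on 3 one-colour Agilent arrays, 18 in all, so that every group carried a double-stranded RNA and no group was left without RNAi. According to the study's methods, different cell numbers were plated for the different temperatures, and plating density and temperature therefore cannot be told apart.

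Microtubules are built from dimers of one alpha- and one beta-tubulin, while gamma-tubulin sits in ring-shaped complexes that nucleate them. Most animals carry several genes for each kind. In *Drosophila*, *alphaTub84B*, its close copy *alphaTub84D* and *betaTub56D* provide the bulk of the tubulin of most cells, and the other genes are known for more restricted use, such as *betaTub85D* in the axoneme of sperm, *alphaTub67C* and *gammaTub37C* in the female germ line and early embryo, and *betaTub60D* in mesoderm. Microtubules are known to disassemble in the cold, and tubulin isotypes differ in the stability of the polymers that they form. That *betaTub97EF* was high in the cool groups was known from earlier results of these data when the 10 genes were selected.

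Signals are given as log2 of the background-subtracted spot intensity after quantile normalization, and a difference of 1 stands for a 2-fold change. Levels can be compared between groups for a probe but not between probes. Of the 16 probes, 14 from 9 genes passed the filter on dim probes (a group in which 2 or more of the 3 arrays were well above background), as did 21775 probes in all. Both probes of *betaTub85D*, the sperm beta-tubulin, were well above background on 0 of 18 arrays and are not discussed further. Where a gene had several probes, the one with the highest mean signal is called the leading probe. A change is termed called if the adjusted p of limma, with Benjamini-Hochberg adjustment over all 21775 probes, was under 0.05 and the change was at least 2-fold.

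The depletion was visible in all arrays. The leading *His2Av* probe was at least 15.04 on every lacZ RNAi array and at most 13.82 on every H2Av RNAi array, with 6.48 to 11.9% of the signal of the control left at the 3 temperatures, and a second probe had 1.56 to 4.64% left. Correlations of all normalized signals were 0.957 to 0.995 within groups and 0.913 to 0.985 between groups, and the median SD of a probe was between 0.20 and 0.41, both at 25 °C (in H2Av RNAi and in the control). The 3 arrays of a group shared a slide that held no other group, slide and group therefore cannot be told apart, and the slides had been scanned in the order of the temperatures. All 9 blood cell markers (*srp*, *Hml*, *Pxn*, *NimC1*, *eater*, *crq*, *Col4a1*, *vkg* and *ush*) were well above background on all 18 arrays. The p-values rest on a single spread per probe, pooled over the replicates of all 6 groups and moderated with the spread of all probes. They do not measure the spread of the compared groups alone.

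*betaTub97EF* was the tubulin gene with the largest temperature response of the 9 tested. In lacZ RNAi cells its probe gave 15.52, 15.34 and 15.46 (14 °C), 14.29, 14.34 and 14.30 (25 °C) and 11.21, 12.42 and 12.43 (30 °C) (replicates 1 to 3). In H2Av RNAi cells it gave 14.57, 14.85 and 14.76 (14 °C), 13.25, 13.77 and 13.84 (25 °C) and 10.33, 11.56 and 11.66 (30 °C). Within each RNAi group the arrays of the 3 temperatures did not overlap, and every step from warm to cool was upward. Replicate 1 at 30 °C was the lowest array in both RNAi groups, more than 1 log2 unit below the other two arrays. The probe was spotted 2 times on each array, and these spots differed by at most 0.07 (log2), far less than the replicates.

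**Figure D1:**
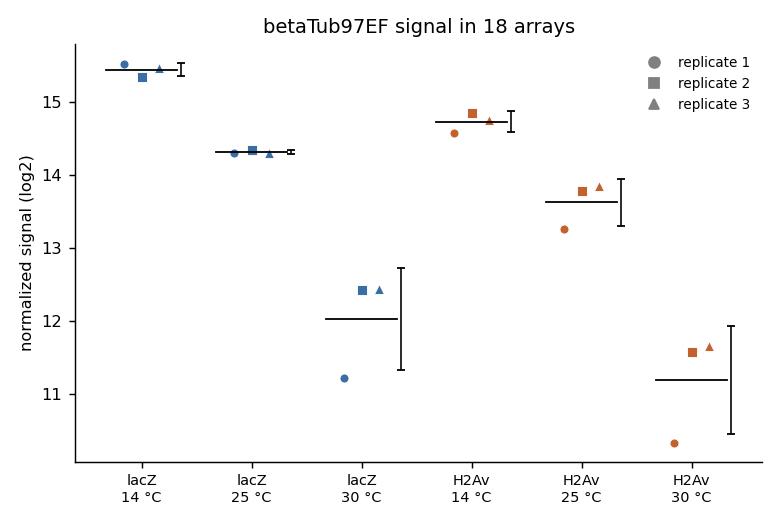
Normalized log2 signal of the *betaTub97EF* probe (vertical axis) on each of the 18 arrays, by RNAi and temperature (horizontal axis). Symbols mark the replicates, horizontal lines the group means and bars the SD (n = 3). The 3 temperatures separate in each RNAi group, from 15.34 or above at 14 °C to 12.43 or below at 30 °C in lacZ RNAi, and replicate 1 lies apart at 30 °C.

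Between 14 and 30 °C, *betaTub97EF* was 10.68-fold higher in the cool in lacZ RNAi (95% interval 6.404 to 17.8, log2 difference 3.42, SE 0.35, adjusted p = 7.23e-06). The value in H2Av RNAi was 11.6-fold (6.98 to 19.4, log2 difference 3.54, adjusted p = 4.13e-06). From 25 to 30 °C it fell 4.89-fold in lacZ RNAi (2.93 to 8.15, adjusted p = 0.00128) and 5.42-fold in H2Av RNAi (3.25 to 9.04, adjusted p = 0.000681). The larger part of the span between 14 and 30 °C thus lay between 25 and 30 °C on the log2 scale. In bulk RNA, a change in the share of cells that express a gene and a change in its level per cell cannot be told apart.

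From 25 to 14 °C the change was smaller and its adjusted p closer to the threshold. The fit takes a single spread per probe over all 6 groups. In lacZ RNAi the SD of this probe was 0.09 at 14 °C, 0.03 at 25 °C and 0.70 at 30 °C. In H2Av RNAi it was 0.14, 0.32 and 0.74. The wider spread at 30 °C thus entered the p-values of this comparison as well. *betaTub97EF* was 2.19-fold higher at 14 °C in lacZ RNAi (1.31 to 3.65, adjusted p = 0.0321) and 2.15-fold in H2Av RNAi (1.29 to 3.58, adjusted p = 0.048). Both calls were close to the threshold: in lacZ RNAi the adjusted p reached up to 0.0841 when single arrays were left out, with 5 arrays ending the call (all 3 of lacZ RNAi at 14 °C and replicates 1 and 3 of lacZ RNAi at 25 °C), and in H2Av RNAi it reached up to 0.176, with 13 arrays ending it (all but replicate 1 of lacZ RNAi at 25 °C, replicates 1 and 2 of lacZ RNAi at 30 °C and replicates 1 and 3 of H2Av RNAi at 30 °C; 0.92 to 1.21 on the log2 scale). Averaged over both RNAi groups, the difference was 1.12 (log2, SE 0.24, adjusted p = 0.00344) and stayed called without any single array (1.02 to 1.17), in a comparison in which 10.4% of all probes were called.

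The fall with warmth was also seen without normalization between arrays. The ratio of *betaTub97EF* to the main beta-tubulin gene *betaTub56D* within each array, taken from unnormalized signals, moved by 3.36 (log2) between 30 and 14 °C in lacZ RNAi and by 3.76 in H2Av RNAi. In lacZ RNAi this ratio ranged from -2.97 to -2.88 over the arrays at 14 °C and from -7.13 to -5.70 at 30 °C. The corresponding movements were 3.37 and 3.47 against *alphaTub84B* and 2.70 and 3.28 against *betaTub60D*. These ratios show unequal change of the members only, since a probe's brightness does not give an amount of transcript.

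*betaTub97EF* was lower after H2Av RNAi at each temperature, but within single temperatures the difference was not called. The log2 differences were -0.71 (95% interval -1.45 to 0.02, adjusted p = 0.245) at 14 °C, -0.69 (-1.43 to 0.05, adjusted p = 0.148) at 25 °C and -0.84 (-1.58 to -0.10, adjusted p = 0.139) at 30 °C. The 3 arrays of each RNAi group did not overlap at 14 and at 25 °C and overlapped at 30 °C, where replicate 1 was low in both. Without replicate 1 of lacZ RNAi at 30 °C, that difference was -1.24 and was called (adjusted p = 0.0269), and without replicate 1 of H2Av RNAi it was -0.41 (adjusted p = 0.493). Over the 3 temperatures together the mean difference was -0.75 (SE 0.20, adjusted p = 0.00933), a 1.68-fold lower signal (1.25 to 2.26) and under the 2-fold threshold. The order of the 6 group means was lacZ RNAi at 14 °C, H2Av RNAi at 14 °C, lacZ RNAi at 25 °C, H2Av RNAi at 25 °C, then the control at 30 °C and last H2Av RNAi at 30 °C, and of the neighbours in this order only the last pair overlapped.

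The temperature response of *betaTub97EF* was not found to differ between the RNAi groups. The interaction (the change with temperature after H2Av RNAi less the same change in the control) was 0.12 for 14 against 30 °C (95% interval -0.92 to 1.17, adjusted p = 0.986), -0.03 for 14 against 25 °C (-1.07 to 1.02) and -0.15 for 30 against 25 °C (-1.19 to 0.89). These intervals still include differences of 2-fold in either direction.

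Among the other 8 genes that were measured, *alphaTub67C* was the only one with a called temperature change. It encodes a divergent alpha-tubulin supplied by the mother to the egg. Its signal was dim, and it was well above background on 16 of 18 arrays (2 of 3 in each of the 30 °C groups). In lacZ RNAi it was 6.14, 6.62 and 6.39 (14 °C), 5.96, 4.90 and 5.66 (25 °C) and 4.24, 4.80 and 4.45 (30 °C). In H2Av RNAi the values were 6.54, 6.55 and 7.30 (14 °C), 5.19, 5.57 and 5.80 (25 °C) and 4.02, 4.76 and 5.12 (30 °C). As for *betaTub97EF*, the arrays of the 3 temperatures did not overlap in either RNAi group.

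From 30 to 14 °C *alphaTub67C* rose 3.71-fold in lacZ RNAi (2.29 to 6.01, adjusted p = 0.000535) and 4.48-fold in H2Av RNAi (2.76 to 7.26, adjusted p = 0.00015). From 25 to 14 °C it rose 2.43-fold in H2Av RNAi (1.497 to 3.93, adjusted p = 0.0178), a call that ended without replicate 3 at 14 °C (1.03 on the log2 scale, adjusted p = 0.0811) or replicate 1 at 25 °C (1.11, adjusted p = 0.0821). In lacZ RNAi the corresponding value was 1.84-fold (1.13 to 2.98) and was not called (adjusted p = 0.0669), but it was called without replicate 1 at 25 °C (1.11 on the log2 scale, adjusted p = 0.0469). From 25 to 30 °C it fell 2.02-fold in lacZ RNAi (1.25 to 3.27, adjusted p = 0.0494), a call that ended without any of 13 arrays (all but replicate 2 at 25 °C and at 30 °C in lacZ RNAi, replicate 3 of H2Av RNAi at 14 °C and replicates 1 and 3 of H2Av RNAi at 30 °C) and whose adjusted p reached 0.156, and the value was 1.85-fold lower in H2Av RNAi (adjusted p = 0.0917). The size of these folds depended on the background correction: with normexp correction of the median spot signals, the difference between 14 and 30 °C was 0.70 (log2) in lacZ RNAi (adjusted p = 0.000458) and 0.76 in H2Av RNAi (adjusted p = 0.000184), both under 2-fold. H2Av RNAi did not separate its arrays from those of lacZ RNAi at any temperature (log2 differences 0.41, 0.01 and 0.14 at 14, 25 and 30 °C).

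**Figure D2:**
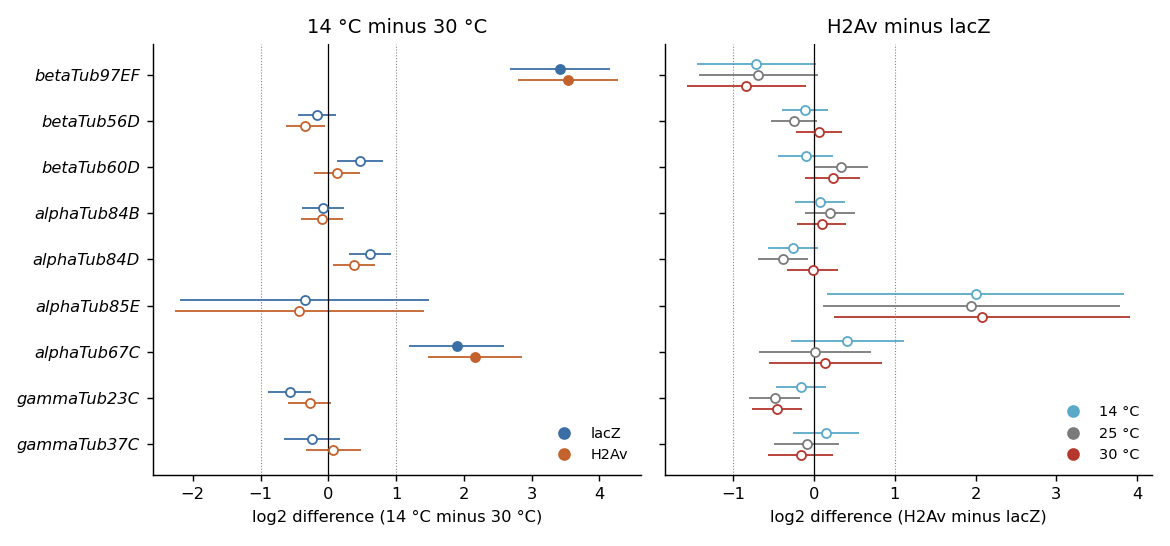
Log2 differences of the leading probes of the 9 measured tubulin genes (rows) between 14 and 30 °C within each RNAi group (left) and between H2Av and lacZ RNAi at each temperature (right). Points are fitted differences, bars their 95% intervals, filled points are called and dotted lines mark 2-fold. Called differences are seen for *betaTub97EF* (3.42 and 3.54) and *alphaTub67C* (1.89 and 2.16) on the left and for no gene on the right.

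Of the 14 tubulin probes, 2 were called between 14 and 30 °C in lacZ RNAi, both higher in the cool, where 19.6% of all probes were called (9.43% higher). The same 2 were called in H2Av RNAi, where 24.3% of all probes were (11.6% higher). Between 14 and 25 °C, 1 probe (*betaTub97EF*) was called in the control (12.3% of all probes, 5.49% higher) and 2 after H2Av RNAi (7.33%, 3.87% higher), all of them higher in the cool. Between 30 and 25 °C, 2 probes were called in the control (8.55%, 4.34% lower) and 1 (*betaTub97EF*) after H2Av RNAi (6.94%, 3.39% lower), all of them lower in the warmth. With 14 probes, counts of 1 or 2 do not set the tubulin genes as a group apart from all probes. The median change of the 14 probes from 30 to 14 °C was 0.23 in the control and 0.10 after H2Av RNAi, beside -0.01 and -0.03 for all probes. At an adjusted p under 0.05 without the 2-fold limit, 6 of 14 probes differed between 14 and 30 °C in the control and 3 after H2Av RNAi, against 31.9% and 38.4% of all probes. The arrays at 14 and 30 °C did not overlap for 8 and 7 of the 14 probes, beside 46.9% and 53.9% of all probes. Between 14 and 25 °C this held for 5 and 5, beside 41% and 37.6%. Between 30 and 25 °C it held for 4 and 7, beside 24.4% and 44.8%. A lack of overlap was thus common and does not by itself set a gene apart.

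The genes of the main tubulins showed no called change. For the leading probe of *betaTub56D*, group means ranged from 18.13 (H2Av RNAi at 14 °C, SD 0.19) to 18.48 (H2Av RNAi at 30 °C, SD 0.04), and the difference between 14 and 30 °C was -0.17 (-0.45 to 0.12) in lacZ RNAi and -0.34 (-0.63 to -0.06, adjusted p = 0.057) in H2Av RNAi. For *alphaTub84B* the group means ranged from 17.32 (lacZ RNAi at 25 °C, SD 0.27) to 17.56 (H2Av RNAi at 30 °C, SD 0.07), with differences of -0.08 (-0.39 to 0.23) and -0.09 (-0.40 to 0.21). Both probes are among the brightest on the array, with only 27 to 117 of the 21775 probes brighter than *betaTub56D* on a given array and 172 to 261 brighter than *alphaTub84B*. Quantile normalization gives equal values to equal ranks and thus leaves little room for change in such probes. When arrays were scaled to their 75th percentile instead, the differences between 14 and 30 °C were 0.07 and -0.10 for *betaTub56D* and 0.06 and 0.19 for *alphaTub84B* (the control first), with adjusted p between 0.555 and 0.885, so that 3 of the 4 signs turned and no change was called.

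*alphaTub84D*, whose coding sequence is almost that of *alphaTub84B* so that the probes of one may also bind transcripts of the other, was somewhat higher in the cool. Its leading probe gave 16.93, 16.88 and 17.00 (14 °C), 16.80, 16.64 and 17.06 (25 °C) and 16.23, 16.48 and 16.25 (30 °C) in lacZ RNAi. The arrays at 14 and 30 °C did not overlap, and the difference was 1.53-fold (1.23 to 1.90, adjusted p = 0.00504), below the 2-fold threshold. In H2Av RNAi the values were 16.77, 16.55 and 16.71 (14 °C), 16.52, 16.28 and 16.54 (25 °C) and 16.20, 16.24 and 16.46 (30 °C). Here too 14 and 30 °C did not overlap, at a 1.30-fold difference (1.05 to 1.61) that missed the threshold (adjusted p = 0.0549). A second probe (A_09_P009886) gave 1.62-fold (adjusted p = 0.00339) in lacZ RNAi and 1.60-fold (adjusted p = 0.00336) in H2Av RNAi. Another probe (A_09_P178050), whose replicates scattered widely, gave log2 differences of 0.80 (adjusted p = 0.474) and 0.03 (adjusted p = 0.983).

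*betaTub60D*, a beta-tubulin known from mesodermal tissues, was clearly present in these cells, with a signal well above background on all 18 arrays. In lacZ RNAi it was 15.95, 16.02 and 15.96 (14 °C), 15.59, 15.86 and 15.96 (25 °C) and 15.35, 15.61 and 15.57 (30 °C). The groups at 14 and 30 °C did not overlap, with a 1.38-fold higher signal at 14 °C (1.09 to 1.74, adjusted p = 0.0359). In H2Av RNAi, where the signals were 15.62 to 16.12 at 14 °C and 15.65 to 15.81 at 30 °C, the groups overlapped and the difference was 0.13 (log2, -0.21 to 0.47, adjusted p = 0.554). The interaction for 14 against 30 °C was -0.34 (-0.81 to 0.14, adjusted p = 0.762).

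The gamma-tubulin gene of somatic centrosomes, *gammaTub23C*, went in the opposite direction. In lacZ RNAi it was 12.08, 12.11 and 12.31 (14 °C), 12.91, 12.83 and 13.19 (25 °C) and 12.64, 12.99 and 12.59 (30 °C). The arrays at 14 °C lay below all others of that RNAi group, with a 1.75-fold lower signal than at 25 °C (1.40 to 2.17, adjusted p = 0.00182) and a 1.49-fold lower one than at 30 °C (1.20 to 1.85, adjusted p = 0.00837). In H2Av RNAi it was 11.87, 12.11 and 12.05 (14 °C), 12.45, 12.46 and 12.55 (25 °C) and 12.22, 12.27 and 12.37 (30 °C). These groups did not overlap either, and the signal at 14 °C was 1.39-fold lower than at 25 °C (1.12 to 1.73, adjusted p = 0.0438), while the difference from 30 °C was -0.28 (log2, -0.59 to 0.04, adjusted p = 0.156). *gammaTub37C*, the maternal gamma-tubulin gene, had group means between 11.53 and 11.81, and its 6 differences between temperatures lay between -0.28 and 0.07 (SE 0.19), with adjusted p of 0.297 or above.

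**Figure D3:**
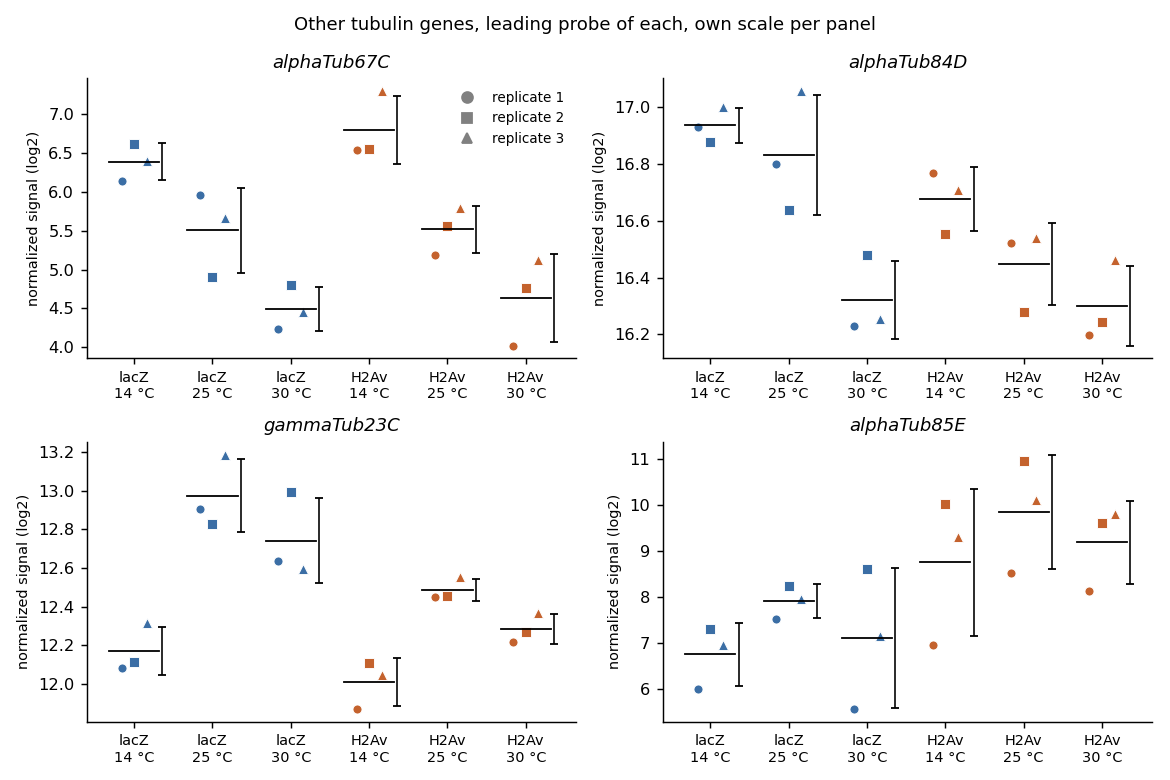
Normalized log2 signals of the leading probes of *alphaTub67C*, *alphaTub84D*, *gammaTub23C* and *alphaTub85E* (vertical axes, each with a scale of its own that does not start at 0) on the 18 arrays, by RNAi and temperature. Symbols mark replicates, lines group means and bars the SD (n = 3). Group means of *alphaTub67C* and *alphaTub84D* were highest at 14 °C in each RNAi group, that of *gammaTub23C* was lowest there, and *alphaTub85E* was higher after H2Av RNAi, with replicate 1 the lowest array in all 6 groups.

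After H2Av RNAi, 0 of the 14 probes were called at 14, 25 and 30 °C, where 3.77%, 14.5% and 6.74% of all probes were. At an unadjusted p under 0.05, 1 of the 14 probes differed at 14 °C, 3 at 25 °C and 3 at 30 °C, beside 21.9%, 40.4% and 25.3% of all probes. The arrays of H2Av and lacZ RNAi did not overlap for 2, 6 and 2 of the 14 probes at these temperatures. The shares of all probes were 32.4%, 44.4% and 30.2%. The gene with the largest difference was *alphaTub85E*, an alpha-tubulin of restricted use that includes the testis. Its signals in lacZ RNAi were 5.99, 7.30 and 6.96 (14 °C), 7.51, 8.24 and 7.96 (25 °C) and 5.56, 8.60 and 7.15 (30 °C). In H2Av RNAi they were 6.95, 10.01 and 9.30 (14 °C), 8.51, 10.95 and 10.10 (25 °C) and 8.14, 9.60 and 9.80 (30 °C). Replicate 1 was the lowest array of its group in all 6 groups, and the arrays of H2Av and lacZ RNAi did not overlap at 25 °C but did at 14 and 30 °C.

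With this spread, the single differences of *alphaTub85E* of 2.00, 1.95 and 2.08 (log2, SE 0.86) at 14, 25 and 30 °C were not called (adjusted p = 0.183, 0.104 and 0.141). In a fit with a replicate block they were called at each temperature (adjusted p = 0.0103, 0.00481 and 0.00502), but the labels tie replicates of the same number to no shared source. The mean over the temperatures was a 4.02-fold higher signal after H2Av RNAi (1.93 to 8.39, adjusted p = 0.00585) and was called, as were 8.34% of all probes in that comparison (4.22% higher). It was the only one of the 14 probes that was called there, and it stayed called without any single array. At 30 °C the value depended on single arrays, since without replicate 2 of lacZ RNAi the difference was 2.83 (adjusted p = 0.047) and was called, while without replicate 1 of lacZ RNAi it was 1.31 (adjusted p = 0.434). The temperature differences of *alphaTub85E* lay between -1.15 and -0.35 for all pairs with adjusted p of 0.346 or above. The deviation of *alphaTub85E* from its group mean had the same sign as the median deviation of 22 probes of the mitochondrial genome on 16 of 18 arrays, and the part of what these probes track in the scatter of *alphaTub85E* was not tested.

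Some markers of other cell types differed between the RNAi groups as well. Signals were summed on the linear scale, so that the brightest genes weigh most in a sum. The summed signal of 5 genes of the female germ line and early embryo ranged from 9.70 to 10.8 (log2) over the lacZ RNAi arrays and from 11.3 to 12.0 over the H2Av RNAi arrays, with *osk*, *vas* and *bam* well above background on all 18 arrays, *nanos* on 16 and *bcd* on 0. Of these genes, *osk* (8.39 to 9.88 against 10.9 to 11.5) and *vas* (4.37 to 6.51 against 7.35 to 8.46) did not overlap between lacZ and H2Av RNAi, whereas *nanos* and *bam* (7.69 to 9.82 against 7.80 to 9.44) did. Of the 6 testis genes, *mia* was well above background on all 18 arrays, *dj* on 12, *can* on 11, *aly* on 3, *sa* on 1 and *Mst87F* on 0, and their summed signal was 11.7 to 12.9 in lacZ RNAi and 12.2 to 13.0 in H2Av RNAi, with overlap between the RNAi groups at 14 and 25 °C but not at 30 °C. This sum was mostly *mia* (11.7 to 12.9 against 12.1 to 13.0). *tj*, a marker of follicle cells and gonadal mesoderm, was well above background on 8 arrays, at 1.70 to 5.50 in lacZ RNAi and 1.71 to 4.50 in H2Av RNAi. The 3 neuronal genes (*elav*, *nSyb* and *Syt1*) were well above background on all 18 arrays. Their summed signal was 12.7 to 13.4 in lacZ RNAi and 14.5 to 14.7 in H2Av RNAi at 25 °C, without overlap, and overlapped at 14 and 30 °C. The brightest of them was *Syt1*, at 11.9 to 14.9 in lacZ RNAi and 13.0 to 14.4 in H2Av RNAi over all temperatures. *elav* was 10.8 to 12.2 and 11.3 to 12.3, and *nSyb* 5.60 to 7.84 and 4.76 to 6.95. Over all temperatures each of these genes thus overlapped between the RNAi groups. The part of these markers in the level of *alphaTub85E* was not tested.

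The summed signal of the muscle genes *Mhc*, *Mlc2* and *up* was 9.93 to 10.8 over the 6 arrays at 14 °C, above all other arrays. At 25 °C it was 8.76 to 9.23 in lacZ RNAi and 8.61 to 8.97 in H2Av RNAi, and at 30 °C 8.44 to 9.66 and 9.41 to 9.79, so that in H2Av RNAi it was lowest at 25 °C. This sum was mostly *Mlc2*, at 8.20 to 10.702 in lacZ RNAi and 8.40 to 10.5 in H2Av RNAi over all temperatures. *Mhc* was 5.26 to 6.78 and 5.37 to 6.65, and *up* 3.30 to 5.06 and 2.00 to 4.95. The course of the sum with temperature thus says little about *Mhc* and *up*. *Mhc* and *Mlc2* were well above background on all 18 arrays and *up* on 8. Their part in the temperature differences of *alphaTub67C* and *betaTub60D* was not tested.

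Beside *betaTub97EF* and *alphaTub85E*, the mean difference between the RNAi groups had an adjusted p under 0.05 for *gammaTub23C*, at -0.37 (log2, SE 0.08, adjusted p = 0.00364), a 1.29-fold lower signal after H2Av RNAi (1.14 to 1.46). At 25 °C its arrays in H2Av RNAi (12.45 to 12.55) lay below those in lacZ RNAi (12.83 to 13.19), a 1.40-fold difference (1.13 to 1.74, adjusted p = 0.0252). At 30 °C the difference was 1.37-fold (adjusted p = 0.0562), and at 14 °C it was -0.16 (log2, -0.48 to 0.15). For the remaining leading probes (*betaTub56D*, *betaTub60D*, *alphaTub84B*, *alphaTub84D*, *alphaTub67C*, *gammaTub37C*) the mean differences between the RNAi groups were between -0.22 and 0.19. In the interactions 0 of the 14 probes were called, while 0.400%, 0.00459% and 0.776% of all probes were called for 14 against 30 °C, 14 against 25 °C and 30 against 25 °C. At an unadjusted p under 0.05 the number was again 0 of 14, beside 8.95%, 11.9% and 11.0% of all probes.

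Different probes of the same gene did not always tell the same story. *alphaTub84B*, *alphaTub84D* and *betaTub56D* had 5 probes beside the leading ones, and 4 of these (A_09_P160035 and A_09_P161960 of *alphaTub84B*, A_09_P178050 of *alphaTub84D* and A_09_P165395 of *betaTub56D*) varied strongly between the replicates of a group, with SDs of up to 1.75 compared to at most 0.27 for the leading probes of these genes. All 4 were lowest on the same arrays. On replicate 1 of lacZ RNAi at 25 °C they lay 1.22 to 1.88 (log2) below their group means, on replicate 2 of the same group 0.92 to 1.59 above. On replicate 2 of lacZ RNAi at 30 °C they lay 0.95 to 1.73 below.

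The leading probes of the same 3 genes deviated by at most 0.31 on any array. *alphaTub84D* thus had 7.9995, 11.47 and 10.17 at 25 °C in lacZ RNAi by probe A_09_P178050, but 16.80, 16.64 and 17.06 by its leading probe. Probes of transcripts of the mitochondrial genome had a median deviation of -1.15 on the first of these arrays (22 probes) and of 0.05 on replicate 2 of lacZ RNAi at 30 °C, and shared the sign of the 4 probes on 8 to 13 of 18 arrays. Their part in the scatter of the 4 probes was not tested. None of them was called in any of the 12 comparisons, with differences between 14 and 30 °C from -0.76 to 0.80. Without replicate 2 of lacZ RNAi at 25 °C, all 4 were called higher after H2Av RNAi at 25 °C (log2 differences 1.30 to 2.29, adjusted p 0.0338 to 0.0468), and without replicate 1 of that group and replicate 2 of lacZ RNAi at 30 °C the differences were 0.24 to 0.66 with 0 of the 4 called. The *betaTub97EF* probe deviated by at most 0.03 on the 3 arrays of lacZ RNAi at 25 °C.

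**Figure D4:**
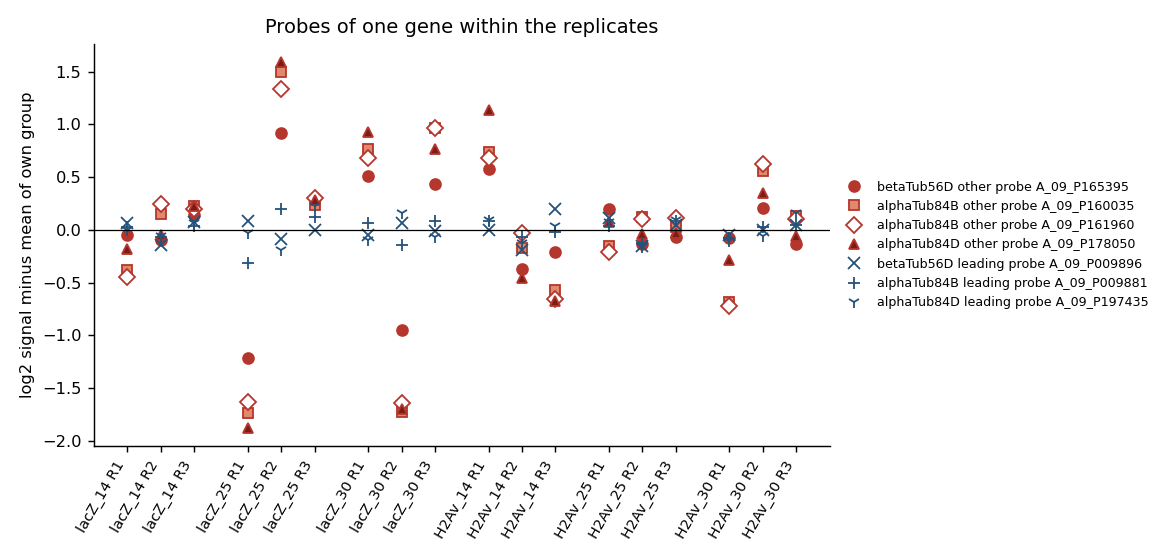
Deviation of log2 signals from the mean of the own group (vertical axis) on the 18 arrays (horizontal axis, R for replicate) for 4 other probes (red) and the leading probes (blue) of *betaTub56D*, *alphaTub84B* and *alphaTub84D*. The red points move together where they deviate most, down to -1.88 on replicate 1 of lacZ RNAi at 25 °C. On some arrays with small deviations they differ in sign. The blue points stay within 0.31 of 0.

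The genes whose profile was most like that of *betaTub97EF* were sought among 9893 genes with a measured probe. Likeness was taken as the root mean square difference over the 18 arrays between the log2 signals of both probes after each had been centred on its own mean, and the most alike probe of a gene was used. The median over all genes was 1.57, and 2 genes lay within 0.5. The closest was *Pask* (0.33), which encodes a protein kinase with a PAS domain, followed by *Lfg* (0.49, a membrane protein of the Lifeguard family), *Cc2d2a* (0.51, a protein of the transition zone of cilia), *CG12880* (0.54), *CG32267* (0.54) and *CG34305* (0.57). A second probe was less alike for *Lfg* (1.02) and for *CG12880* (0.88).

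All 6 of these genes were highest at 14 °C and lowest at 30 °C in both RNAi groups, which the choice by likeness implies. Group means of *Pask* in lacZ RNAi were 13.24 at 14 °C, 11.89 at 25 °C and 9.86 at 30 °C, and in H2Av RNAi 12.40, 10.84 and 8.86. The change between 14 and 30 °C was thus 3.39 and 3.54 (log2), beside 3.42 and 3.54 for *betaTub97EF*. *CG34305* had a larger difference between the RNAi groups than *betaTub97EF* (mean over temperatures -1.44 against -0.75), and *CG32267* a smaller one (-0.32). Of the other tubulin genes, *alphaTub67C* was the most similar (0.89, rank 124), followed by *alphaTub84D* (1.28, rank 1340) and *betaTub60D* (1.43, rank 2849), while *alphaTub85E* was among the least similar genes (2.22, rank 9468). The likeness ranks rest on the same arrays as the temperature comparison and are a description of these 18 arrays.

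**Figure D5:**
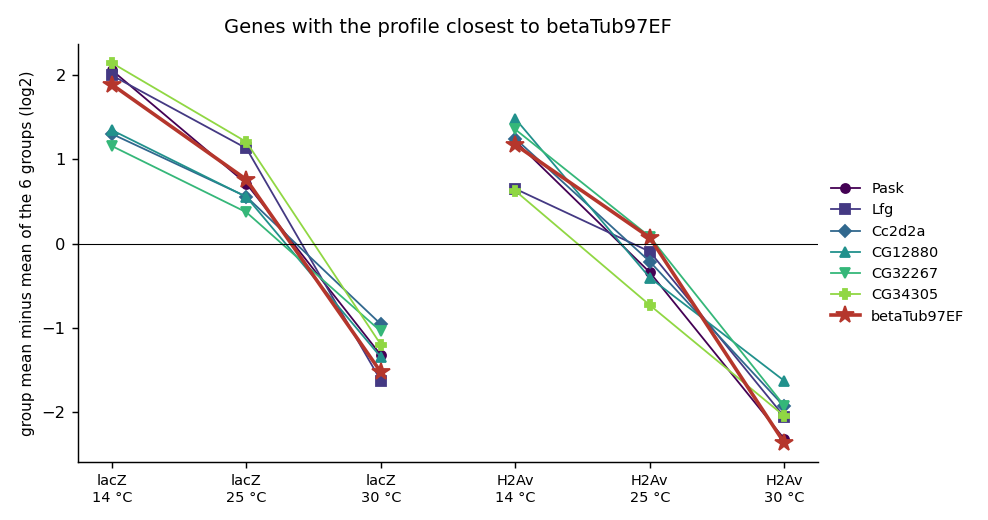
Group means of log2 signals minus the mean of the 6 groups (vertical axis) for *betaTub97EF* (red stars) and the 6 genes with the closest profile, by RNAi and temperature (horizontal axis). *Pask* follows *betaTub97EF* most closely (root mean square difference 0.33), while *CG34305* is the lowest of the genes in H2Av RNAi at 25 °C.

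The genes that act on microtubules were described in 8 lists with 81 genes, of which 73 were measured, each by its leading probe. The shares of all probes given beside them count every probe of a gene, so that the units differ. In lacZ RNAi 2 of them were called higher at 14 than at 30 °C and 4 lower, which is 8.22% of the 73 against 19.6% of all probes. In H2Av RNAi 1 was higher and 7 were lower, which is 11.0% against 24.3%. The list medians lay between -0.25 and 0.22 in lacZ RNAi and between -0.36 and 0.22 in H2Av RNAi (medians of all probes -0.01 and -0.03). Other probes of these genes were not counted, and some passed the call rule between 14 and 30 °C in both RNAi groups. Higher in the cool (log2, lacZ RNAi first) were probes of *Arp1* (1.59 and 1.57), *Atat* (1.44 and 1.47) and *Nna1* (2.36 and 2.76, 1.83 and 3.31). Lower were probes of *CLIP-190* (-1.06 and -1.60, -1.47 and -1.91) and a second probe of *asp*. The probes of *CLIP-190* disagreed in direction. A_09_P032421 was higher in the cool, under 2-fold (0.55, adjusted p = 0.00429, and 0.52, adjusted p = 0.00523). A_09_P051066 gave 0.32 and 0.44, and A_09_P186965 gave -0.29 and -0.70. Of these genes, only *asp* was also called by its leading probe.

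By the leading probes, 4 genes were called in both RNAi groups, all lower in the cool. *dgt4* and *msd5* encode subunits of augmin, the complex that recruits gamma-tubulin to microtubules of the spindle. *dgt4* ranged from 13.74 to 14.19 at 14 °C and from 15.90 to 16.02 at 30 °C in lacZ RNAi, a fall of 2.06 (log2, adjusted p = 4.26e-06), and the difference was -1.42 in H2Av RNAi (adjusted p = 7.18e-05). *msd5* differed by -1.80 (adjusted p = 8.73e-05) and -1.35 (adjusted p = 0.000722). The other 6 augmin genes were not called in either RNAi group, and the median of all 8 was -0.25 and -0.32.

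*asp*, which encodes a protein of spindle poles and microtubule minus ends, fell by 1.37 in lacZ RNAi (adjusted p = 0.00113) and by 1.65 in H2Av RNAi (adjusted p = 0.000223), with a second probe at -1.42 and -1.62. *stai*, the stathmin gene, whose product binds free tubulin dimers, was 13.64 to 13.78 at 14 °C and 14.70 to 15.33 at 30 °C in lacZ RNAi. The difference was -1.27 (adjusted p = 0.000287) there and -1.48 (adjusted p = 6.42e-05) in H2Av RNAi. In lacZ RNAi *stai* was 1.13 higher at 30 than at 25 °C (adjusted p = 0.00323) and differed by -0.14 between 14 and 25 °C (adjusted p = 0.644), whereas *dgt4* differed by 0.22 (adjusted p = 0.451) and -1.84 (adjusted p = 5.2e-05) in these comparisons. Another 3 probes of *stai* gave -1.46 to -1.89 over both RNAi groups (adjusted p 0.0395 to 0.0857).

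In a single RNAi group, *Kap3* (kinesin-2 associated protein, 1.65) and *Klp98A* (a kinesin-3, 1.04) were called higher at 14 than at 30 °C in lacZ RNAi. In H2Av RNAi, *shot* (a spectraplakin that links actin and microtubules, 1.08) was called higher, and *Grip71* (-1.33), *Map60* (-1.06) and *mars* (-1.04), whose products act at centrosomes and spindles, were called lower. A second probe of *mars* gave -0.24 there (adjusted p = 0.484), and the other probes of *shot* gave -0.07 to 1.41 (adjusted p 0.148 to 0.91). That the genes called in a single RNAi group differ between the RNAi groups was not found, as 0 of the 73 genes were called in the interaction for 14 against 30 °C. By the leading probes, none of the 5 tubulin folding cofactors, 12 tubulin-modifying enzymes or 7 mitotic kinesins measured was called between 14 and 30 °C in either RNAi group. Of the modifying enzymes, other probes of *Atat* and *Nna1* were called higher in the cool in both RNAi groups, as given above. In H2Av RNAi alone, other probes of *Sirt2* (-1.70, adjusted p = 0.000101) and *TTLL4A* (-1.44, adjusted p = 0.000416) were called lower. So was another probe of the cofactor gene *Tbcd* (-1.16, adjusted p = 0.0428). After H2Av RNAi, over the mean of the temperatures, 1 of the 73 genes was called (1.37%, against 8.34% of all probes), *TTLL12* (lower, adjusted p = 3.6e-07), a member of the tubulin tyrosine ligase family. At single temperatures, 2 were called higher at 14 °C, *Grip84* (a subunit of the gamma-tubulin complexes, 1.04, adjusted p = 0.00582) and *TTLL4B* (of the same ligase family as *TTLL12*, 1.07, adjusted p = 0.0474). At 25 °C 3 were called lower, *msd5* (-1.20, adjusted p = 0.00355), *Fign* (a severing protein, -1.36, adjusted p = 0.0038) and *TTLL12* (-1.04, adjusted p = 0.000148), and at 30 °C 0 were called. These counts were 2.74% and 4.11% of the 73 at 14 and 25 °C, against 3.77% and 14.5% of all probes.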

How the data were processed

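S2R+ cells were measured in 6 groups of 3 arrays, assigned from the sample titles. The deposited scanner files hold spot intensity values, which the authors extracted with Agilent Feature Extraction 10.7.3.1 per the file headers. The processed signal (background-subtracted, not normalized between arrays) was used, and median pixel intensity served an alternative. The authors also deposited a matrix of log2 values, quantile-normalized per the study's methods. Per array, Spearman's rho of its values was 0.986 to 0.997 with the median signal and 0.968 to 0.987 with the processed signal. Which signal entered it is not given in the sources used here. Its column medians were 7.19 to 7.20. All of its columns were mapped to samples.

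Beside 1417 control spots, which were left out, each array held 43603 spots, and outlier spots (42 to 78 per array) were set to missing. The number of saturated spots was 0. Log2 signals were quantile-normalized with limma 3.58.1 in R 4.3.3, following the study's methods, and spots of the same probe were summarised by their median. Model fits with 6 group means used lmFit, contrasts.fit and eBayes (two-sided, 2.35 prior degrees of freedom). The 12 comparisons were pairs of temperatures within each RNAi group, RNAi groups at each temperature and interactions, and 4 means over groups were added after the data had been seen. The script was tested on simulated data. Probe names were matched to RefSeq symbols (19482 of 32162 probes, 60.6%). No probe or promoter sequence was used here.

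The 10 genes, the marker and microtubule lists and the rule for named genes (all tubulin genes, *His2Av*, the 6 genes most like *betaTub97EF*, and list members called between 14 and 30 °C in both RNAi groups) were chosen with earlier results of these data known. List genes outside this rule were picked for naming with their values in view. The number of arrays limits the precision. Alternatives covered scaling, background correction, filters, the matrix, the samples fitted, a replicate block, array weights, variance moderation, averaging of spots and each array left out.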

Additional observations from a re-analysis of the deposited data

How the results depend on the processing

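*betaTub97EF* was recomputed under 29 alternatives, 18 of which left out 1 array. Its rise from 30 to 14 °C stayed called in both RNAi groups under all of them that gave a value, at 3.01 to 3.62 (log2) in lacZ RNAi and 3.11 to 3.78 in H2Av RNAi without single arrays. From 25 to 14 °C the call ended in lacZ RNAi when replicate 1 at 25 °C and replicate 2 at 30 °C were both left out (1.12, adjusted p = 0.0587; an alternative added after the data had been seen), and in H2Av RNAi without the filter on dim probes (1.10, adjusted p = 0.0671) and in the deposited matrix (1.05, adjusted p = 0.0506). With only the groups compared in the fit, the fall from 25 to 30 °C in lacZ RNAi was -2.29 and not called (adjusted p = 0.122). In that fit 0 of all probes were called in this comparison, against 1862 with all groups fitted. Without single arrays, the change from 25 to 14 °C was 1.09 to 1.18 in lacZ RNAi and 0.92 to 1.21 in H2Av RNAi, and the difference of H2Av from lacZ RNAi at 30 °C was -1.24 to -0.41. No called change of a tubulin gene turned its sign.

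The number of called tubulin probes, 2 between 14 and 30 °C in each RNAi group and in their mean, was 1 with normexp correction and 1 in the matrix. Between 14 and 25 °C it was 2 instead of 1 in lacZ RNAi with scaling to the 75th percentile. In H2Av RNAi it was 1 instead of 2 with normexp and without the filter, and 0 in the matrix. In the mean it was 1 with normexp and in the matrix. Between 30 and 25 °C in lacZ RNAi it was 1 instead of 2 with 75th percentile scaling, normexp, no filter, the matrix, a variance trend or both arrays left out, and 0 with only the groups compared, as it was over all probes. In H2Av RNAi it was 2 instead of 1 with 75th percentile scaling. H2Av against lacZ RNAi gave 1 instead of 0 at 25 °C with 75th percentile scaling, and 1 at 30 °C with array weights or both arrays left out. Without single arrays the counts were 0 to 2 between 14 and 25 °C in each RNAi group (1 to 2 in the mean), 1 to 3 between 30 and 25 °C in lacZ RNAi (1 to 2 in the mean), and for H2Av against lacZ RNAi 0 to 4 at 25 °C and 0 to 1 at 30 °C.

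The labels tie replicates of the same number to no shared source. Their deviations correlated at -0.47 to 0.46 within an RNAi group (median 0.23), above 0.1 in 15 of 18 pairs, compared to 6 of 36 pairs of different number (median -0.11), and 11 of 18 arrays correlated best with their own number. Between the RNAi groups, 11 of 27 pairs of the same number were above 0.1 (median 0.006), compared to 16 of 54 of different number (median 0.009). Within an RNAi group, replicates of the same number also shared the position on their slides, and number and position cannot be told apart. With a replicate block, 1 tubulin probe, that of *alphaTub85E*, was called after H2Av RNAi at 14 °C (2.00, adjusted p = 0.0103), 25 °C (1.95, adjusted p = 0.00481) and 30 °C (2.08, adjusted p = 0.00502).

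Over all probes, 4264 were called between 14 and 30 °C in lacZ RNAi, against 2197 with normexp and 2474 in the matrix. With arrays scaled to their 75th percentile, the median over all probes shifted by up to 0.43 (H2Av against lacZ RNAi at 25 °C, 3899 of 4808 calls higher instead of 1474 of 3155) and by 0.32 between 14 and 25 °C in lacZ RNAi (2691 of 3550 higher instead of 1195 of 2678). Signal over background limits *alphaTub67C*, which was above it on 16 of 18 arrays, and *betaTub85D*.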

Other observations

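Beside the 10 tubulin genes, the array held probes of 2 genes with tubulin-like products, *betaTub65B* and *CG7794*, which were added after their values had been seen. *CG7794* was well above background on 0 of 6 arrays at 14 °C and on 10 of the 12 at 25 and 30 °C. It thus passed the filter on dim probes only through the warmer groups. Its p-values between warm and cool groups therefore lend no independent support to a fall in the cool. In lacZ RNAi its signals were 2.98 to 3.33 at 14 °C, 4.21 to 5.04 at 25 °C and 4.60 to 6.03 at 30 °C. After H2Av RNAi they were 1.79 to 1.85, 2.88 to 4.13 and 4.202 to 4.69, and in both RNAi groups the cool arrays lay below all warmer ones. As no array of the cool groups measured it, the mean of the warm group was set against, on each cool array, the higher of the lowest signal among probes well above background and the signal of *CG7794* itself. In lacZ RNAi the own signal was the higher on all 3 cool arrays, so that the value equals the fold of the measured means and is no bound. By these means *CG7794* was 4.01-fold lower at 14 than at 30 °C in lacZ RNAi (limma, adjusted p = 0.000871), with the cool arrays not well above background. In H2Av RNAi this rule gave a 2.93-fold lower value, where 2 of 3 arrays at 30 °C measured it (limma on the measured signals, adjusted p = 8.92e-05). The lowest signal among probes well above background is no detection limit. *CG7794* itself was not well above background at 2.98 to 3.33 in lacZ RNAi. The values after H2Av RNAi are therefore no bounds either. Against 25 °C *CG7794* was 2.89-fold lower by the measured means in the control (limma, adjusted p = 0.00976). After H2Av RNAi the rule gave 1.74-fold (limma on the measured signals, adjusted p = 0.00443, measured on 2 of 3 arrays at 25 °C). This direction was opposite to that of *betaTub97EF*.

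*betaTub65B* was well above background on all 18 arrays, at 5.61 to 7.53, and was called in 0 of the 12 comparisons. After H2Av RNAi at 25 °C its signal was 5.61, 5.74 and 5.96 (in rising order) against 6.19, 6.51 and 7.53 in the control, and these arrays did not overlap. The difference was -0.97 (log2, SE 0.29, adjusted p = 0.0252) and remained under 2-fold.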
